A study of Rattus norvegicus with 9 samples.

Results

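The genes described here are 4 markers of hippocampal field CA2, Amigo2, Rgs14, Pcp4 and Necab2, together with Pced1b, whose start overlaps that of Amigo2. They were taken by gene name from the deposited count table, where each name had 1 identifier, and they are 5 of 30562 genes. The set was chosen by earlier results of these data, namely the group differences in the same counts, so the differences of the members between the groups are given as a description of these libraries and their p-values as the output of a fit over all genes. Of the 5, 4 had enough counts to enter the test over 7073 genes, and Amigo2 did not. The hippocampal RNA was from male rats of the Sprague-Dawley strain, 6 to 8 weeks old on arrival, with 3 libraries in each of 3 groups. Ctrl rats were normal controls. Model rats ate a high-fat diet for 4 weeks, were injected once with 50 mg/kg streptozotocin, which destroys pancreatic beta cells, were kept if their hyperglycaemia lasted, and then went through 5 weeks of chronic unpredictable mild stress. ChryM rats received chrysophanol, a plant anthraquinone, by gavage for 14 days; that they had also been through the diabetes and stress protocol follows from the series title, and the dose is not given in the labels. The labels do not tie libraries to single animals, so p-values measure only the spread between libraries, which may be technical.

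Field CA2 is a narrow band of large pyramidal neurons between CA3 and CA1. It is known for synapses that resist long-term potentiation in the stratum radiatum, for dense perineuronal nets and for a role in social memory. RGS14, a scaffold that accelerates G-protein shut-off and binds Ras and Rap proteins, restrains plasticity at these synapses. PCP4 is a small IQ-motif protein that speeds calcium exchange on calmodulin, NECAB2 is an EF-hand calcium-binding protein that binds adenosine and metabotropic glutamate receptors, and AMIGO2 is a leucine-rich repeat and immunoglobulin adhesion protein. PCED1B is a PC-esterase domain protein and is not a CA2 marker. None of these genes is restricted to CA2 in the brain, and Pcp4 and Necab2 are also expressed outside the hippocampus. In whole tissue, fewer cells of a type and less RNA per cell cannot be told apart.

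The start regions of the members are shown because Amigo2 and Pced1b share theirs. In the RefSeq table of the rat build GRCr8, each window runs from 250 bases before to 50 bases after the gene's start, and all 5 members were found. Amigo2 lies on the minus strand at chr7:130273686-130273985 and Pced1b on the plus strand at chr7:130273690-130273989. The windows share 296 bases, which are the same letters after reverse complementing, and the annotated starts lie 205 bases apart, with the genes overlapping head to head. The window of Amigo2 is printed for the pair. Those of Pcp4 (chr11:49269936-49270235, plus strand) and Rgs14 (chr17:9268184-9268483, minus strand) are printed because these 2 markers moved in opposite directions between the groups. Capitals mark CCAAT on either strand (ATTGG) and, in Pcp4, TGTTCT, letters recognised by the glucocorticoid and mineralocorticoid receptors.
Amigo2: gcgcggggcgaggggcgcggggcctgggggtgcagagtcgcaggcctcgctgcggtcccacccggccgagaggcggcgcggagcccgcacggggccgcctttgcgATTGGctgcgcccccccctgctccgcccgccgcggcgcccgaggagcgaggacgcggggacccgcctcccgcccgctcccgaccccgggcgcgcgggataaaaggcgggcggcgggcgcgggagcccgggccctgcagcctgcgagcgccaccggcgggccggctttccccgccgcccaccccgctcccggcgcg
Pcp4: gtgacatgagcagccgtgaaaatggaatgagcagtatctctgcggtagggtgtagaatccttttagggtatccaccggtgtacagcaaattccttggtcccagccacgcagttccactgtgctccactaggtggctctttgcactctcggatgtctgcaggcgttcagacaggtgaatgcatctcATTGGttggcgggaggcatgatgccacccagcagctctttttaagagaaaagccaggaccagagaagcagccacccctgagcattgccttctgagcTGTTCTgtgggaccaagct
Rgs14: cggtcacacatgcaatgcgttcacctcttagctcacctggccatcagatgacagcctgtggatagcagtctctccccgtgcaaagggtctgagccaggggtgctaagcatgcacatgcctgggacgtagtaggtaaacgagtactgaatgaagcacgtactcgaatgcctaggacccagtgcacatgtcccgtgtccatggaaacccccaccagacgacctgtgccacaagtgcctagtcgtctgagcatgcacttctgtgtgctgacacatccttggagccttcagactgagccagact
The Amigo2 window was 83.7% G and C with 52 CG dinucleotides, and Necab2's was 85.7% with 51, against medians of 51.7% and 7 over 33469 rat windows. Rgs14 at 55.3% with 10 and Pcp4 at 53.3% with 7 lay near those medians. CCAAT was found once in the shared Amigo2 and Pced1b window and once in Pcp4, and it occurred in 37.5% of all windows. The GC box GGGCGG was found 4 times each in Amigo2, Pced1b and Necab2, on both strands together, against 33.1% of windows with any. TGTTCT occurred once in Pcp4 and in 20.7% of windows, CACGTG once in Necab2 and in 6.42%, and TATAAA in no member and in 14.2%. These matches describe letters only.

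Depth was low throughout, with 631119 to 866048 counts per library. The libraries were made to keep strand, but how strand was treated in counting is not given in the sources used here, so reads of 1 gene counted under a gene on the opposite strand cannot be told apart from its own. Whether the reads were counted on the strand of each gene was not tested, and if they were not, every value here, those of Rgs14 and Pcp4 included, would stand for reads of the other strand. Slc1a2, the main astrocyte glutamate transporter gene and normally abundant in hippocampus, had only 7 to 17 counts per library, and Mapk3, which encodes the kinase ERK1, had 0 in all 9 libraries. Overlapping genes are touched directly: RefSeq places Amigo2 and the lncRNA gene LOC134479567 on the strand opposite to Pced1b, with the pseudogene Btf3-ps7 also inside it, and Slc38a8 opposite to Necab2. RefSeq shows no gene overlapping Rgs14 or Pcp4. Over the table, a mean of at least 10 counts was reached by 39.5% of 3626 protein-coding genes overlapped only on the opposite strand and by 28.3% of 11212 overlapped by none. CPM below are library-size-scaled counts (edgeR's CPM, with trimmed mean of M-values factors). Changes are log2 fold changes ± SE from edgeR's quasi-likelihood test on all 9 libraries, with p adjusted by Benjamini-Hochberg over the 7073 genes and called below 0.05.

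Pced1b was higher in Model than in Ctrl and lowest in ChryM, with no overlap between any of the groups. It stood at 368, 373 and 416 CPM in Ctrl, at 681, 608 and 668 CPM in Model and at 295, 275 and 331 CPM in ChryM. The lowest Model library was thus well above the highest Ctrl library, and all ChryM libraries were below all Ctrl libraries. Group means were 385 ± 26.3, 652 ± 39.0 and 300.4 ± 28.1 CPM (SD, n = 3). Pced1b rose by 0.76 ± 0.08 on the log2 scale in Model against Ctrl (edgeR adjusted p = 2.61e-14) and changed by -1.13 ± 0.09 in ChryM against Model (adjusted p = 4.76e-25). The ChryM to Ctrl difference was -0.36 ± 0.09 (adjusted p = 0.00135). Over the alternatives tried, the 3 calls held, with adjusted p of at most 0.00252, 5.52e-05 and 0.0401. Of all genes tested, 12.4% were called in Model against Ctrl, 8.27% in ChryM against Model and 18.8% in ChryM against Ctrl. Groups did not overlap for 26.1%, 23.6% and 31.7% of tested genes in the same order.

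Amigo2 itself was almost without counts. The libraries held 3, 6 and 2 counts in Ctrl, 5, 3 and 0 in Model and 2, 3 and 0 in ChryM. The groups overlapped, and a library at 0 occurred in both Model and ChryM. Sums of 11, 8 and 5 counts, scaled by library totals alone, gave a Model to Ctrl ratio of 0.823 (exact 95% counting interval 0.288 to 2.25). The ChryM to Model ratio was 0.526 (0.136 to 1.82). With the trimmed mean of M-values factors, the group means were 4.6, 4.4 and 2.0 CPM in Ctrl, Model and ChryM. The intervals cover counting error only. A difference of Amigo2 between groups was therefore not detectable at this depth. Without a count filter, edgeR gave Amigo2 adjusted p of 0.995, 0.774 and 0.568 in Model against Ctrl, ChryM against Model and ChryM against Ctrl.

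Nearly all counts of the pair carried the name Pced1b. Its share of the summed Pced1b and Amigo2 counts was 98.81% ± 0.64 in Ctrl, 99.33% ± 0.61 in Model and 99.30% ± 0.64 in ChryM (SD, n = 3). These are counts over whole genes, not reads at the shared start. With 3 libraries against 3, an exact permutation test cannot give a p below 0.1, and with 0 to 6 counts of Amigo2 the share has little room to vary, so a difference in it could not be shown. Whether the Pced1b counts hold reads of Amigo2 or of the other overlapping genes was not tested, since the table gives no strand.

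Neither the rise nor the fall of Pced1b was called for Rpap3 and Rapgef3, the tested genes near it. Within 500 kb of Amigo2, the table holds 5 named genes of 33 in RefSeq, and besides Pced1b these are Slc38a4, Rpap3, Endou and Rapgef3. The amino acid transporter gene Slc38a4 had no count in any library and Endou, an endoribonuclease gene, at most 2. Rpap3, a gene of RNA polymerase and chaperone assembly, had 24, 25 and 20 counts in Ctrl, 24, 27 and 19 in Model and 29, 28 and 28 in ChryM, with adjusted p of 0.489, 0.981 and 0.437 in the order of comparisons above. Rapgef3, which encodes a cAMP-activated exchange factor for Rap, was called in ChryM against Ctrl only, at 0.64 ± 0.23 (adjusted p = 0.0348), and that call was lost in 9 of the alternatives, among them without Ctrl 2, Ctrl 3, ChryM 2 or ChryM 3, with adjusted p of up to 0.367. In Model against Ctrl and ChryM against Model its adjusted p was 0.12 and 0.904; the difference of these from the third comparison was not tested.

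**Figure D1:**
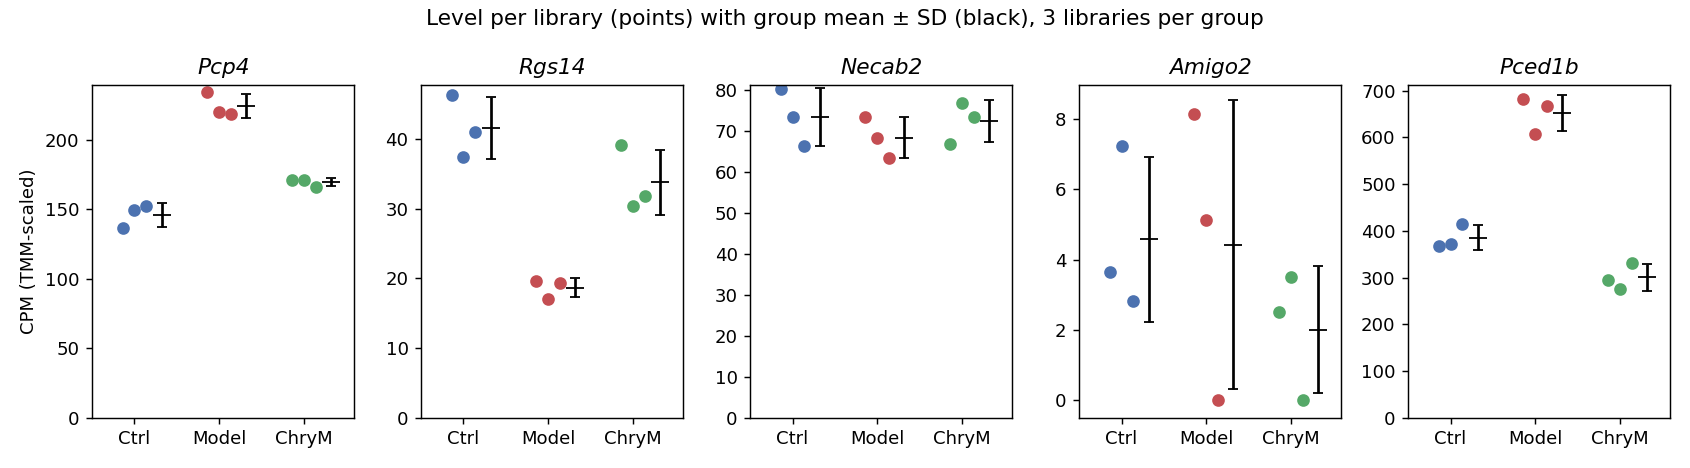
Level of each gene in CPM scaled by the trimmed mean of M-values (vertical axes, 1 per gene), by group: points are the 3 libraries of Ctrl, Model and ChryM, and black bars the group mean ± SD. Pced1b and Pcp4 stood highest in Model and Rgs14 lowest there, Necab2 overlapped across groups, and Amigo2 ranged from 0 to 8.15 CPM.

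Rgs14 was lower in Model than in either other group. It had 46.3, 37.4 and 41.0 CPM in Ctrl, 19.6, 17.1 and 19.3 CPM in Model and 39.1, 30.3 and 31.8 CPM in ChryM. Every Model library lay below every Ctrl and ChryM library, while Ctrl and ChryM overlapped. Rgs14 fell from 41.6 ± 4.48 to 18.6 ± 1.36 CPM in Model, which was -1.15 ± 0.28 on the log2 scale (edgeR adjusted p = 0.000737), on 98 counts in Ctrl and 36 in Model. It was higher in ChryM than in Model, at 33.8 ± 4.69 CPM and a difference of 0.84 ± 0.29 (adjusted p = 0.0383). ChryM and Ctrl differed by -0.30 ± 0.22 (adjusted p = 0.377; 95% interval -0.73 to 0.13).

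The Rgs14 call for Model against Ctrl held in each alternative that gave it a value, with adjusted p up to 0.0116. The call for ChryM against Model was lost when any 1 of the 3 Model or 3 ChryM libraries was left out, with adjusted p of 0.0513 to 0.195, and without a count filter (0.092). The direction was the same in all of these, between 0.72 and 0.92. In both comparisons the SE of the test was slightly smaller than counting alone gives, so the larger SE is printed and the p-values may be too small; the same held for Nr3c2, Rap2a and Rap1b against Ctrl. The 8 myelin markers moved between the groups like Rgs14, with a summed level of 15830 to 16050 CPM in Ctrl, 8968 to 10050 CPM in Model and 15830 to 16850 CPM in ChryM, and their part in the Rgs14 values was not tested.

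Pcp4 moved the other way, upward in Model. The libraries stood at 136, 149 and 153 CPM in Ctrl, 235, 220.4 and 219 CPM in Model and 172, 172 and 166 CPM in ChryM. All Model libraries lay above all ChryM libraries, which in turn lay above all Ctrl libraries. Pcp4 rose from 146 ± 8.63 to 225 ± 8.75 CPM in Model, by 0.62 ± 0.11 on the log2 scale (adjusted p = 6.34e-06), and fell to 170 ± 3.11 CPM in ChryM, a difference of -0.40 ± 0.11 (adjusted p = 0.00741). For ChryM against Ctrl, where the libraries also did not overlap, as for 31.7% of all tested genes, the difference was 0.22 ± 0.11 (adjusted p = 0.188) and was not called. With DESeq2 the call for ChryM against Model was lost (adjusted p = 0.0678), at the same fold change of -0.40.

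Necab2 was level across the groups within its spread. It had 80.4, 73.6 and 66.4 CPM in Ctrl, 73.4, 68.3 and 63.3 CPM in Model and 66.8, 77.0 and 73.3 CPM in ChryM. The groups overlapped in every comparison. Differences were -0.12 ± 0.17 for Model against Ctrl, 0.09 ± 0.17 for ChryM against Model and -0.03 ± 0.16 for ChryM against Ctrl (adjusted p = 0.759, 0.845 and 0.942). The 95% intervals ran from -0.45 to 0.22, from -0.25 to 0.43 and from -0.34 to 0.29, so a change of the size seen for Rgs14 in Model lay outside the first of them. Slc38a8, the amino acid transporter gene that overlaps Necab2, had 6 to 20 counts per library and adjusted p of 0.764, 0.969 and 0.618.

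Of the 4 CA2 markers, 1 thus rose and 1 fell in Model, 1 was not called and 1 was not tested. Of all tested genes, 7.04% were called higher and 5.39% lower in that comparison. In ChryM against Model 1 CA2 marker was called higher, where 3.86% of tested genes were, and 1 lower, where 4.41% were. In ChryM against Ctrl no CA2 marker was called, where 9.83% of tested genes were higher and 8.96% lower; at an unadjusted edgeR p under 0.05 there was also none, and DESeq2 called none.

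**Figure D2:**
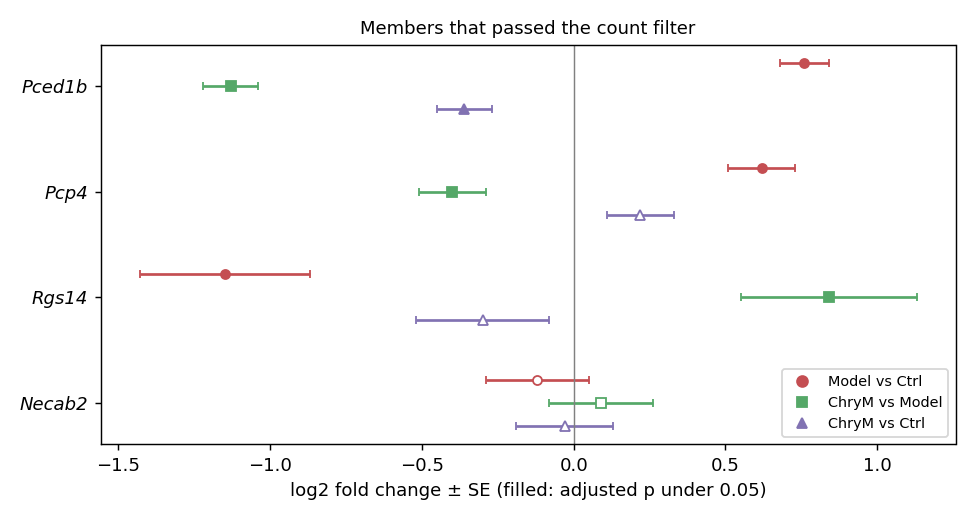
Log2 fold change ± SE (horizontal axis) of the 4 members that passed the count filter, for Model against Ctrl (circles), ChryM against Model (squares) and ChryM against Ctrl (triangles); filled symbols have adjusted p under 0.05. Pced1b and Pcp4 are right of 0 in Model against Ctrl and left of it in ChryM against Model, Rgs14 is the reverse, and Necab2 lies near 0.

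Levels of different genes were compared per length, as the deposited FPKM. Pcp4 was highest, at 196 to 306 FPKM over the 9 libraries, above 98.7% of genes with any count. Necab2 (37.0 to 51.1 FPKM) and Pced1b (34.1 to 79.3 FPKM) followed, then Rgs14 (5.17 to 15.4 FPKM) and Amigo2 (0 to 1.94 FPKM). The order of Necab2 and Pced1b depended on the group. In Ctrl they overlapped, at 46.1 ± 5.51 and 48.6 ± 1.85 FPKM. In Model, Pced1b stood at 76.2 ± 4.80 FPKM against 39.6 ± 2.68 FPKM for Necab2, and in ChryM at 36.4 ± 2.46 FPKM against 43.6 ± 3.56 FPKM, without overlap in either group.

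Most other genes enriched in CA2 had too few counts to be tested, and the cause was not tested. The list of 12 genes was wholly present, and 4 passed the count filter. The calcium channel subunit gene Cacng5 had no count in any library, and Avpr1b, the vasopressin receptor gene that marks CA2, had 1 count in all. Among the 4 tested, Model against Ctrl gave 1 lower and 0 higher, where 5.39% and 7.04% of all tested genes were. The median log2 fold change was 0.01, against -0.02 over all tested genes. ChryM against Model gave no call, where 3.86% of all were higher and 4.41% lower, with a median of 0.08, against 0.00. The gene called lower was Nr3c2, the mineralocorticoid receptor gene. It had 42, 50 and 38 counts in Ctrl, 20, 14 and 18 in Model and 23, 17 and 27 in ChryM. Both other groups lay below Ctrl, with differences of -1.02 ± 0.24 in Model (adjusted p = 0.000443) and -0.96 ± 0.22 in ChryM (adjusted p = 0.000267). Unlike for Rgs14, no difference was called between ChryM and Model (0.06 ± 0.27, adjusted p = 0.937); whether the genes differ in this was not tested.

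Ptpn5, which encodes the striatal-enriched phosphatase STEP, was at 107, 132 and 141 CPM on average in Ctrl, Model and ChryM. It was called higher in ChryM against Ctrl, at 0.38 ± 0.13 (adjusted p = 0.0217), a call that was lost without Ctrl replicate 3 or ChryM replicate 3, with library totals, with DESeq2 and on log2 FPKM (adjusted p up to 0.119). Its other differences were 0.29 ± 0.14 for Model against Ctrl and 0.09 ± 0.13 for ChryM against Model (adjusted p = 0.154 and 0.785). Map3k15, a MAP kinase kinase kinase gene that overlaps Pdha1, differed by 0.08 ± 0.09, -0.11 ± 0.09 and -0.03 ± 0.09 in Model against Ctrl, ChryM against Model and ChryM against Ctrl (adjusted p = 0.672, 0.55 and 0.838). The adenosine A1 receptor gene Adora1, which overlaps Mybph, differed by -0.05 ± 0.16, 0.18 ± 0.16 and 0.12 ± 0.15 (adjusted p = 0.902, 0.619 and 0.629).

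Partners of RGS14 were mostly lower than in Ctrl where they were called. Of 18 listed genes 15 were tested, and in Model against Ctrl 5 were lower and 1 higher, where 5.39% and 7.04% of all tested genes were, with a median of -0.24 against -0.02. In ChryM against Model 1 was higher and 0 lower, where 3.86% and 4.41% of all were, with a median of -0.09 against 0.00. In ChryM against Ctrl 8 were lower and 0 higher, where 8.96% and 9.83% of all were, with a median of -0.32 against -0.01. Rap2a, a small GTPase gene, fell from 45.8 CPM in Ctrl to 19.8 in Model and 19.1 in ChryM, at -1.24 ± 0.27 and -1.26 ± 0.26 against Ctrl (adjusted p = 0.000184 and 3.10e-05). Gnai1, which encodes an inhibitory G-protein subunit that RGS14 binds, fell by 0.85 ± 0.26 in Model and 1.15 ± 0.26 in ChryM (adjusted p = 0.0164 and 0.000296). Rap1b fell by 0.60 ± 0.22 and 0.82 ± 0.21 (adjusted p = 0.0484 and 0.00195).

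Among the calmodulin kinase genes of that list, Camk2a was lower in both groups than in Ctrl, at -0.44 ± 0.12 and -0.43 ± 0.12 (adjusted p = 0.00568 and 0.00352). Camk2b fell by 0.24 ± 0.08 in Model (adjusted p = 0.0276) and rose by 0.39 ± 0.08 in ChryM against Model (adjusted p = 0.000126), the only call of the list in that comparison. Calm2 and Calm3, which encode calmodulin, and Gnao1 were called lower in ChryM against Ctrl only, at -0.32, -0.39 and -0.39. Hras, which overlaps Lrrc56, rose by 0.45 ± 0.13 in Model (adjusted p = 0.00744). Several of these calls ended when 1 library was left out. In Model against Ctrl this held for Gnai1 (adjusted p up to 0.139) without Ctrl 2 or either of Model 2 and Model 3, Camk2a without Model 2 (0.0896), Camk2b without Ctrl 1, Ctrl 2 or Model 3 (0.232), Hras without Ctrl 2 or Model 1 (0.0676) and Rap1b without any 1 of 7 libraries, the exceptions being Ctrl 1 and ChryM 3 (0.275). The Gnao1 call ended without Ctrl 1, Ctrl 2 or any ChryM library (0.128). Other settings ended calls too. With DESeq2 those of Rap1b, Camk2a and Camk2b in Model (adjusted p = 0.236, 0.0788 and 0.0785) and of Rap1b, Camk2a and Gnao1 in ChryM against Ctrl (0.0589, 0.0796 and 0.239) were lost. On log2 FPKM those of Gnai1 in both comparisons with Ctrl (up to 0.201 and 0.0613), Hras in Model (up to 0.127) and Gnao1 (up to 0.148) were lost. Without a count filter Rap1b and Camk2b in Model (0.137 and 0.138) and Gnao1 (0.132) were lost, as were Hras with library totals (0.0705) and Rap1b in Model with DESeq2's size factors (0.0512).

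**Figure D3:**
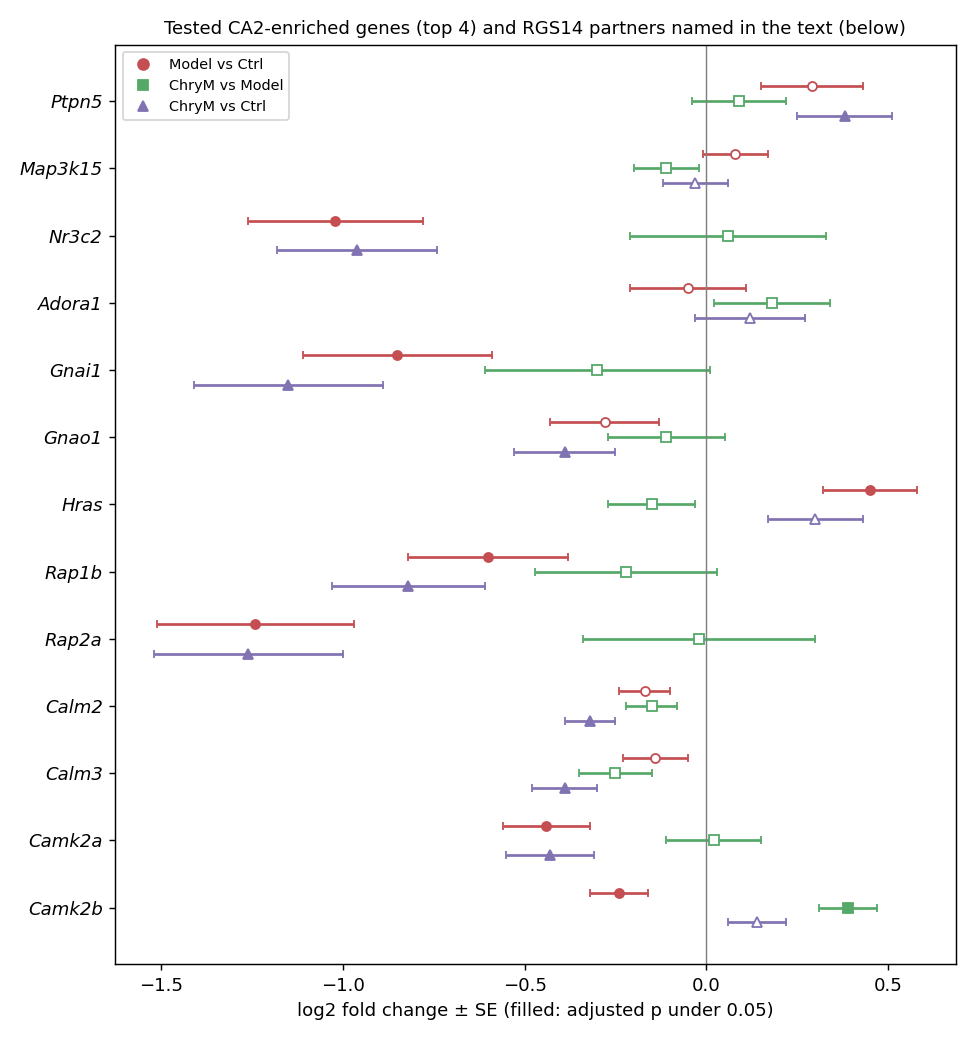
Log2 fold change ± SE (horizontal axis) of the 4 tested CA2-enriched genes and of the 9 genes of RGS14 partners and signalling that the text names, for the 3 comparisons; filled symbols have adjusted p under 0.05. Nr3c2, Gnai1, Rap1b and Rap2a lie left of 0 in both comparisons with Ctrl, and Camk2b is the filled square at 0.39.

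Relatives of the members did not share 1 pattern. Amigo3, an adhesion gene related to Amigo2 that overlaps Gmppb and Rnf123, rose by 0.46 ± 0.09 in Model and 0.60 ± 0.08 in ChryM against Ctrl (adjusted p = 1.20e-05 and 8.02e-10), the first of which was lost on log2 FPKM (adjusted p up to 0.0787). Amigo1, another relative of Amigo2, was tested without a call. Necab1, a relative of Necab2, rose by 0.85 ± 0.07 in Model and fell by 0.84 ± 0.07 in ChryM against Model (adjusted p = 2.95e-23 and 6.84e-23). Its ChryM and Ctrl libraries overlapped, at means of 2145 and 2140 CPM, whereas those of Pcp4 did not. The NECAB2 partner gene Grm5 was tested without a call, and Adora2a had at most 2 counts in a library. Of the IQ-motif genes that bind calmodulin, Gap43 fell by 0.51 ± 0.11 in ChryM against Model (adjusted p = 0.000187) and by 0.42 ± 0.10 against Ctrl (adjusted p = 0.00111), and the neurogranin gene Nrgn had no call. Pcp4l1 had at most 5 counts in a library.

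The profile of each tested member over the 9 libraries was compared with that of every other tested gene, by Pearson r of log2 CPM. These values describe libraries that share groups and carry no test. Among the members Rgs14 and Pcp4 ran opposite to each other (r = -0.956), Pced1b with Pcp4 had r = 0.766 and Pced1b with Rgs14 r = -0.786. Necab2 had r of -0.459 to 0.375 with the others.

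For Pced1b the most similar genes were Basp1, a growth-cone protein gene (r = 0.979), Nnat, which encodes neuronatin and overlaps Blcap (0.977), and Syn3, a synapsin gene that overlaps Timp3 and Fbxo7 (0.976). Their mean levels in Ctrl, Model and ChryM were 1598, 1849 and 1415 CPM for Basp1, 527, 822 and 414 CPM for Nnat and 26.7, 65.0 and 19.4 CPM for Syn3. For Pcp4 they were Cibar2 (r = 0.979), LOC102546590 (0.977) and the olfactory receptor gene Or14c39 (0.970). Cibar2 stood at 1271, 2252 and 1571 CPM, LOC102546590 at 57.5, 461 and 120 CPM and Or14c39 at 467, 731 and 578 CPM, so all 3, like Pcp4, were highest in Model and lowest in Ctrl.

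For Rgs14 the most similar were Mag, a myelin glycoprotein gene (r = 0.955), Scd2, a fatty acid desaturase gene (0.948), and Zfp57, an imprinting regulator gene that overlaps the myelin gene Mog (0.947). Mag stood at 262, 131 and 206 CPM in Ctrl, Model and ChryM, Scd2 at 602, 434 and 512 CPM and Zfp57 at 3394, 2358 and 3082 CPM. For Necab2 the most similar were the mitochondrial gene Mt-cyb (0.925), Fbxl12 (0.923) and RGD1566359 (0.895), and Mt-cyb had means of 3859, 3781 and 3879 CPM.

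**Figure D4:**
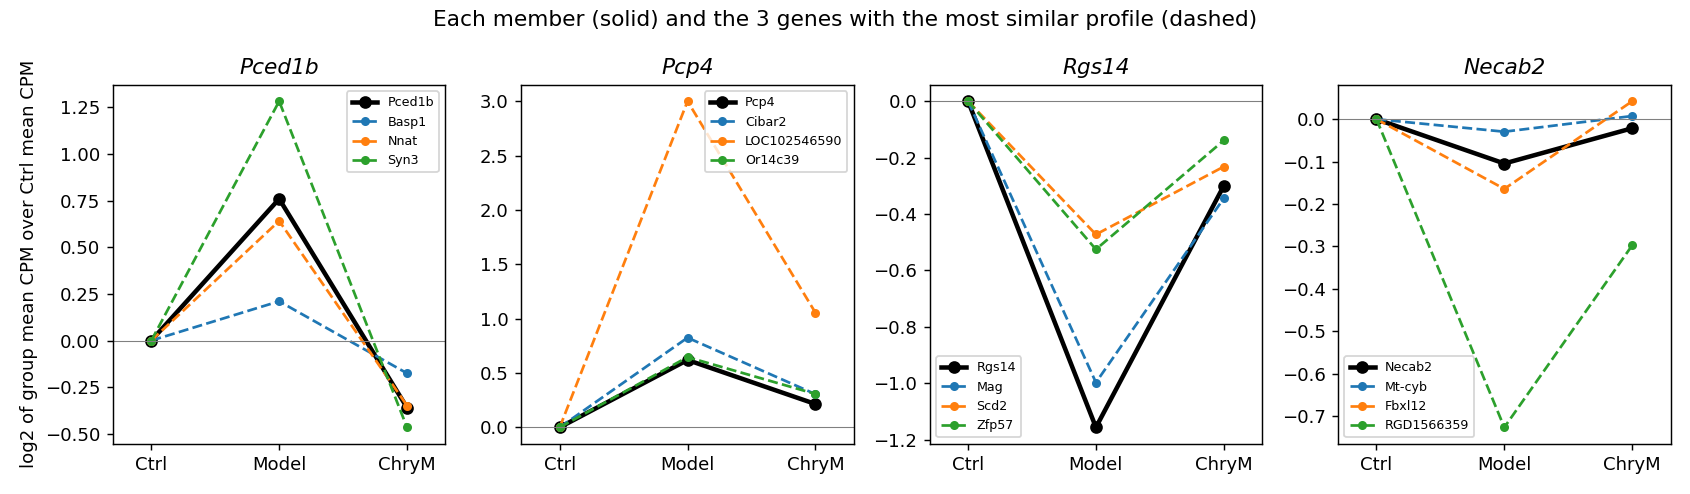
Log2 of the group mean CPM over the Ctrl mean CPM (vertical axes, which differ between panels) in Ctrl, Model and ChryM for each tested member (solid black) and the 3 genes with the highest Pearson r over 9 libraries (dashed). For Pced1b, Rgs14 and Pcp4 the genes share the direction of the member in Model. The size is close for some, as for Or14c39 (edgeR log2 fold change 0.65 in Model against Ctrl) and Pcp4 (0.62). It is not for others, as for LOC102546590 at 461 CPM in Model against 57.5 in Ctrl.

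Markers of other cells moved between the same groups. Of all tested genes, 5.39% were called lower and 7.04% higher in Model than in Ctrl. In ChryM, 3.86% were called higher than in Model and 8.96% lower than in Ctrl. All 8 myelin markers were lower in Model than in Ctrl (median log2 fold change -1.06) and 6 of 8 higher in ChryM than in Model (median 0.58). The 9 choroid plexus markers summed to 1705 to 1790 CPM, 35.9 to 46.8 CPM and 73.5 to 90.0 CPM, and their 3 tested members were lower in both groups than in Ctrl. Erythroid genes summed to 323 to 356 CPM, 70.1 to 90.5 CPM and 105 to 110 CPM, with both tested members lower in Model and in ChryM than in Ctrl. Of 6 astrocyte markers 2 were lower in Model and 4 in ChryM against Ctrl, and of 4 tested microglial markers 0 and 1. The 1 tested endothelial marker, Flt1, was lower in ChryM than in Ctrl (-1.45 ± 0.42, adjusted p = 0.00544). The sum of the interneuron markers moved in the direction of Pcp4 and Pced1b in Model. It was 189 to 208 CPM in Ctrl, 224 to 276 CPM in Model and 181 to 205 CPM in ChryM. Not every gene of the list followed it. Gad2, below the count filter, went the other way, with means of 6.33 CPM in Ctrl and 1.00 CPM in Model, without overlap. Gad1 and Pvalb were not called in Model against Ctrl (log2 fold changes of 0.08 and 0.20). Of the 4 tested, Sst, the somatostatin gene, was called higher in Model than in Ctrl (0.46 ± 0.16, adjusted p = 0.0440), a call lost in 11 of 19 alternatives, among them DESeq2 and leaving out Ctrl 2, Ctrl 3, Model 1, Model 2 or ChryM 3 (adjusted p up to 0.254). The part of these shifts in the Pcp4 and Pced1b values was not tested.

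Lists of markers of other regions were also read. Whether their counts came from tissue outside the hippocampus was not tested. Of 8 thalamic and habenular markers none passed the count filter. Their sums were 13.4 to 39.6 CPM in Ctrl, 41.3 to 53.8 CPM in Model and 15.2 to 25.2 CPM in ChryM. They rest on only 11 to 28, 30 to 33 and 13 to 20 counts per library in the same order. The sums were highest in Model like Pcp4, but ChryM overlapped Ctrl, unlike for Pcp4. Plekhg1 went the other way, with means of 4.50 CPM in Ctrl and 2.80 CPM in Model. The part of these markers in the Pcp4 values was not tested. Of 10 striatal markers 2 were tested and none was called in any comparison, with sums of 113 to 132 CPM in Ctrl, 104 to 117 CPM in Model and 98.0 to 118 CPM in ChryM, and the dopamine receptor genes Drd1 and Drd2 had at most 1 count in a library. Deep cortical and subicular markers, at 106 to 158 CPM in Ctrl, had 3 of 5 tested members lower in Model than in Ctrl, where 5.39% of all tested genes were. Among hippocampal fields, 3 of 4 tested dentate granule markers and 1 of 6 CA1 markers were lower in Model, where 5.39% of all tested genes were. In ChryM against Model 3 of 4 and 1 of 6 were higher, where 3.86% of all were. Neither of the 2 tested CA3 markers was called. The CA3 markers summed to 84.0 to 105 CPM in Ctrl. Sums of different lists are not comparable with each other, since CPM are not scaled by gene length and the lists differ in size. The dentate markers Lct and Tdo2 had no count in any library.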

How the data were processed

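Per the labels' protocols, dUTP marking kept the strand of poly(A) RNA from rat hippocampus. The authors deposited read counts per gene as whole numbers, and FPKM with a gene length, per the file headers. The FPKM equalled count over length and library total in 100% of values (relative tolerance 1e-06). Per the submitters' processing notes, HISAT2 and DESeq2 were used (no versions). Not given in the sources used here: counter, treatment of strand, genome build and gene models. Counts were filtered with filterByExpr (7073 of 30562 genes kept) and scaled with TMM factors of 0.9557 to 1.065. They were fitted with 1 coefficient per group in edgeR 4.0.16 (glmQLFit, robust, R 4.3.3), leaving 6 residual degrees of freedom. The spread shared across genes entered with a median of 191.7 prior degrees of freedom and a common biological coefficient of variation of 5.5%. The p-values thus rest mostly on this shared spread, not on each gene's own libraries. The fit was also run on simulated counts drawn with 1 common spread for every gene, which cannot show how it performs on the spread of these libraries. Intervals of fold changes are ± 1.96 SE. Identifiers without a name held 21.99% to 24.58% of counts.

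Named genes are the members, their neighbours within 500 kb of Amigo2 or 5 kb of any member, the 3 genes most similar to each (log2 CPM, prior count 2), and from each list the called members and those with the smallest p, with values printed only for lists that bear on the members. The members and lists were chosen with earlier results of these data known. Alternatives were other scalings, DESeq2 1.42.0, other count filters, only the groups compared, a replicate block, a spread that is not robust, limma 3.58.1 on log2(FPKM + 1) and log2(FPKM + 0.1), and leaving out each library. RefSeq sequences and overlaps are of GRCr8.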

Additional observations from a re-analysis of the deposited data

How the results depend on the processing

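Over the alternatives, the calls of Pced1b in 3 comparisons and of Rgs14 and Pcp4 in Model against Ctrl kept their direction and their side of the threshold; DESeq2 gave Rgs14 no adjusted p in that comparison or in ChryM against Model. For ChryM against Model, Rgs14 was 0.85 without a count filter (adjusted p = 0.092) and 0.72 to 0.92 with 1 library left out, and Pcp4 was -0.40 with DESeq2 (adjusted p = 0.0678); the cause was not tested. Necab2 in ChryM against Ctrl was 0.00 with DESeq2 and without a count filter, and -0.08 to 0.05 with 1 library left out. Map3k15 in Model against Ctrl was -0.05 with library totals and -0.03 on both log2 FPKM scales. With 1 library left out, Adora1 in Model against Ctrl ran from -0.16 to 0.06 and Nr3c2 in ChryM against Model from -0.16 to 0.29.

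The number of genes called was 879 in Model against Ctrl, 585 in ChryM against Model and 1329 in ChryM against Ctrl. DESeq2 called 413, 252 and 598 genes in the same order. Testing log2(FPKM + 1) with limma gave 553, 352 and 793, and log2(FPKM + 0.1) gave 521, 351 and 772. Library totals shifted the median of all genes in Model against Ctrl from -0.02 to -0.14 and the split from 498 higher and 381 lower to 276 and 655; the splits became 373 and 252 in ChryM against Model, from 273 and 312, and 520 and 819 in ChryM against Ctrl, from 695 and 634. Of 53 values of other named genes 43 were called; 29 of these calls held in each alternative with a value, 14 were lost in at least 1, and 0 reversed.

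Same-numbered libraries did not deviate together (r of -0.0304 to 0.0421), so no pairing by number was seen. Counting noise at this depth could hide a pairing, so these values cannot exclude one. With the replicate block 855, 586 and 1317 genes were called, and no member gained or lost a call. Counts of 0 to 6 in Amigo2 and 10 to 38 in Rgs14 limit what these libraries can show.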
